A study of Mus musculus with 4 samples.

Results

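The later mutant embryo was compared with the younger normal embryo: Tc/Tc at E10 against wild type at E8. The comparison used 2 of the study's 4 libraries, 1 for each group, both made by directional mRNA-seq from whole embryos of (C3H/HeH x 101/H)F1 origin. Tc/Tc embryos are homozygous for Tc, a mutant allele of T (Brachyury), and were taken at E10.0 to 10.5. The wild-type embryos carried no Tc allele per their label and were taken at E7.5 to 8.0. The question is which transcripts separate a mutant at the later stage from a normal embryo at the earlier one. No treatment, transgene or Cre is named for either group. The sources used here do not say how many embryos went into a library or whether they were pooled. Both other libraries, wild type E10 and Tc/Tc E8, carry the same 2 stages and genotypes in the opposite combination and are used only to place the values.

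The unit is FPKM, fragments scaled by transcript length and by the mapped fragments of a library, as deposited. Of 36808 gene identifiers, 14032 reached 1 FPKM in 1 or both libraries, and 411 of these had no estimate in 1 of the 2 tables. Of the 13621 left, 12325 lay on autosomes and were compared, 602 lay on X or Y, 31 were mitochondrial and 663 had no chromosome in the annotation. The ratio is log2 of (Tc/Tc E10 + 1) over (wild type E8 + 1), which understates the change of low genes. A gene is called higher or lower once the size of its log2 ratio reaches 1. With 1 library per group there is no replicate check, so no p-value is given and each call describes a pair of libraries.

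T encodes a transcription factor of the T-box family that acts in the streak, tail bud and notochord. Mesoderm that leaves the streak and tail bud makes the trunk and tail, and mouse embryos without T function fail to extend the body axis. Around E8 the normal embryo is gastrulating and starts to form its heart and its first blood cells in the yolk sac. By E10 it normally has a beating heart, circulating primitive red cells, many somites, limb buds and the first neurons. The visceral endoderm, which becomes the inner layer of the yolk sac, supplies lipoproteins and carrier proteins in this period.

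T itself (ENSMUSG00000062327) stood at 36.8 FPKM in wild type E8 and 30.4 in Tc/Tc E10, a log2 ratio of -0.27. In wild type E10 it stood at 7.99 FPKM and in Tc/Tc E8 at 48.3. The transcript level of Tc/Tc E10 thus lay next to that of wild type E8, and it does not show which allele was read. Eif2s3y, on the Y chromosome, read 81.1 FPKM in wild type E8 and was listed at 0 in Tc/Tc E10, and Xist was at 0.193 and 124 FPKM. Both E8 libraries held male RNA and both E10 libraries female RNA, so sex and stage cannot be told apart and the comparison was kept to autosomes. Total FPKM was 629159 in wild type E8 and 610808 in Tc/Tc E10. From the value of 1 fragment in low genes, the Tc/Tc E10 library was 1.04 times as deep as that of wild type E8, but the absolute depth is unknown. Re-estimation of wild type E8 in another of the authors' tables moved log2 values with an SD of 0.047. Tc/Tc E10 has 1 usable estimate, and the value for the other E10 library was 0.155.

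The 2 libraries were close over most of the transcriptome. Of 12325 autosomal genes, 297 were higher in Tc/Tc E10 (2.41%), 85 were lower (0.69%), 382 in all (3.1%), and 11943 stayed within the size rule. The median log2 ratio was 0.10 with an SD of 0.47, and 83.2% of genes lay within 0.5 of no change. With ratios centred on that median, the split was 220 higher and 111 lower. Small RNA genes held many of the calls, with 70 of 159 higher, against 190 of 10718 protein coding genes (1.77%), and 41 protein coding genes were lower (0.383%), 231 in all (2.16%). Small RNA values were also the least stable, since between 2 estimates of the single wild type E10 library 42 of 194 small RNA genes passed the same rule, against 14 of 10601 protein coding genes. At the threshold, the genes just inside were Ttn and Arhgdib at 1.002 and Snrpg at -1.001, and just outside were Lyve1 at 0.998, Pygm at 0.999 and Robo3 at -0.999.

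**Figure D1:**
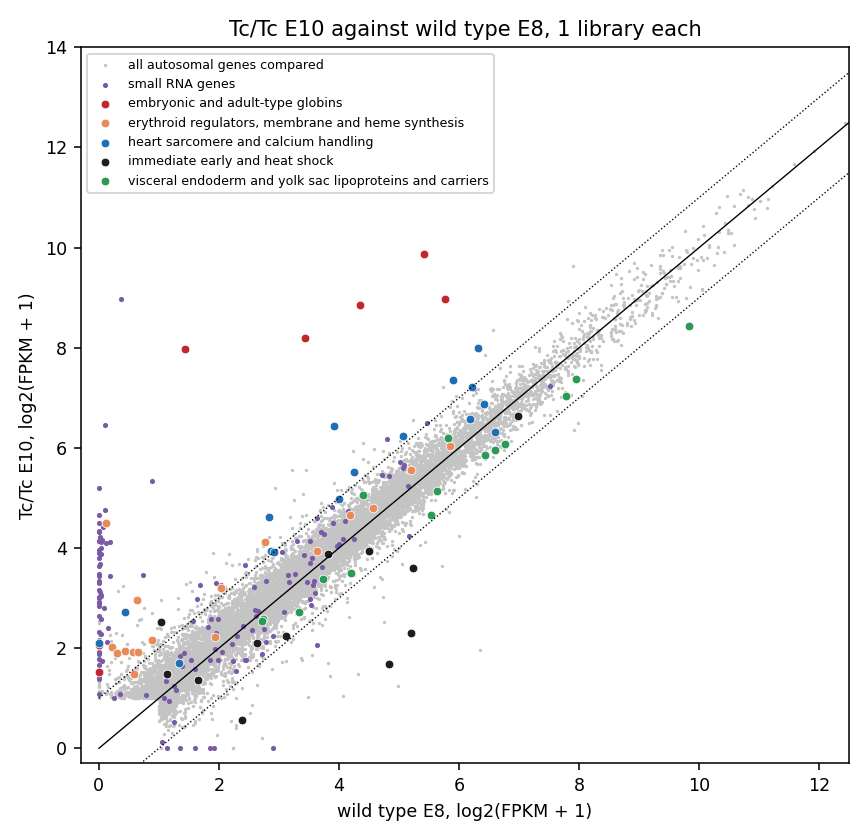
Each point is an autosomal gene, with log2(FPKM + 1) in wild type E8 on the x axis and in Tc/Tc E10 on the y axis, 1 library each; the solid line marks equal values and the dotted lines a log2 ratio of 1 and -1. Most genes follow the solid line, the globins and several heart sarcomere genes lie above the upper dotted line, and small RNA genes line the left edge.

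Among the 6 pairs that 4 libraries allow, Tc/Tc E10 and wild type E8 differed at the smallest share of genes. Over genes compared in the same way, 2.83% of autosomal and 2.09% of protein coding genes passed the size rule between them. Tc/Tc E10 against wild type E10, the library of its own stage, gave 5.67% and 4.98%. The share was 6.74% for Tc/Tc E8 against wild type E8, 10.1% for Tc/Tc E10 against Tc/Tc E8, 10.7% for wild type E10 against wild type E8 and 18.4% for wild type E10 against Tc/Tc E8. These pairs share libraries, and their differences were not tested. With each library taken from its other table where it had one, the pair of Tc/Tc E10 and wild type E8 was still the lowest, at 2.79%.

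**Figure D2:**
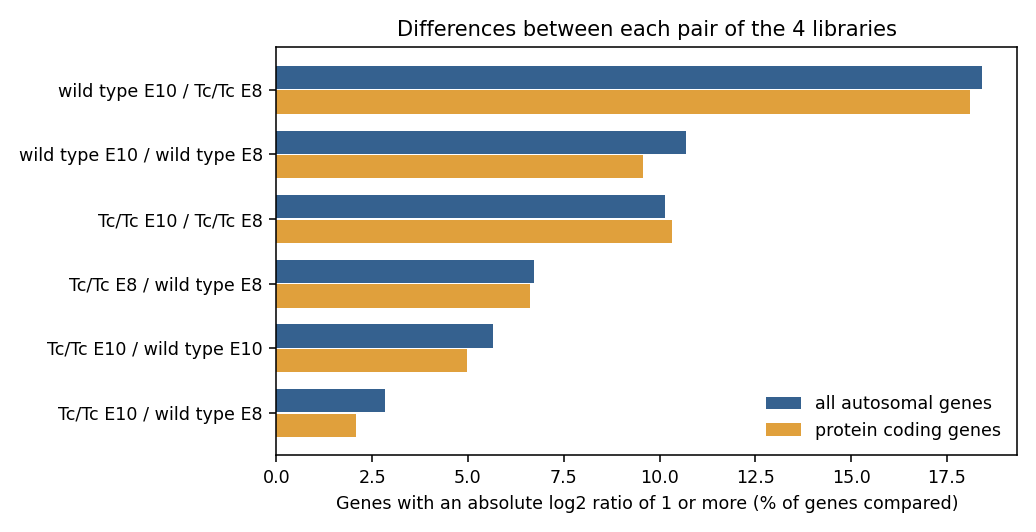
Bars give the percentage of genes with an absolute log2 ratio of 1 or more for each pair of the 4 libraries, for all autosomal genes (blue) and protein coding genes (orange). The pair of Tc/Tc E10 and wild type E8 has the shortest bars, at 2.83% and 2.09%, and wild type E10 against Tc/Tc E8 the longest, at 18.4% and 18.1%.

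Globins made the largest difference among the protein coding genes. Primitive red cells of the mouse yolk sac switch on embryonic globins first: Hbb-y and Hbb-bh1 of the beta locus and Hba-x of the alpha locus. Promoters of Hbb-y, Hba-x and the heart gene Myl7 are shown so that the letters near their starts can be read beside the levels. Myl7 lay just past the size rule. The sequences come from RefSeq on GRCm38.p6, a later build than the mm9 of the files. Each runs from 250 bases before the gene start to 50 after it. Capitals mark CACCC and CCAAT in the globin promoters and CATTCC, the MCAT motif, in that of Myl7, the atrial myosin light chain, searched on both strands.
Hbb-y, chr7:103853158-103853457, minus strand: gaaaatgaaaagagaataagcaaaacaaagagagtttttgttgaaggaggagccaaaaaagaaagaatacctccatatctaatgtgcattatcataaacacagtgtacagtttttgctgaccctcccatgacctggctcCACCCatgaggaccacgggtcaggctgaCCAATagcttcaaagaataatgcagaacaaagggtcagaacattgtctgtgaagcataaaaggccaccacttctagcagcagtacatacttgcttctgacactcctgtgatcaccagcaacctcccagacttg
Hba-x, chr11:32276350-32276649, plus strand: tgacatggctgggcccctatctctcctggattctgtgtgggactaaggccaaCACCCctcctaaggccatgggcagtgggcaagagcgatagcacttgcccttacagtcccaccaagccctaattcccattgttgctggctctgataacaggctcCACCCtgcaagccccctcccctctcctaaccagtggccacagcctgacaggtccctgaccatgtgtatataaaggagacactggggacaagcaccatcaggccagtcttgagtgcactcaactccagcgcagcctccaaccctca
Myl7, chr11:5898733-5899032, minus strand: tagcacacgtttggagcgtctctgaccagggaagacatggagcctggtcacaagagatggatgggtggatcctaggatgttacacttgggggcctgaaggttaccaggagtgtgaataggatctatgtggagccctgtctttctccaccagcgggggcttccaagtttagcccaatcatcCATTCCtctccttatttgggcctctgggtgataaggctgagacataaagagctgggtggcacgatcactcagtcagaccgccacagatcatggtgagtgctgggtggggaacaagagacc
The Hbb-y promoter held 1 CACCC and 1 CCAAT, and that of Hba-x held 2 CACCC and no CCAAT in this window. The table held promoters for 4 of the 7 globins compared, Hbb-y, Hba-x, Hba-a1 and Hba-a2. CACCC was present in 4 and CCAAT in 3 of them, against 56.7% and 37.9% of the 27025 promoters in the table.

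All 7 globins compared were higher in Tc/Tc E10, with a median log2 ratio of 4.45, against 2.41% of all autosomal genes. Hbb-y (ENSMUSG00000052187) stood at 1.69 FPKM in wild type E8 and 250 in Tc/Tc E10, a log2 ratio of 6.55. In wild type E10 it stood at 1727 FPKM and in Tc/Tc E8 at 0.724. Hbb-y was thus low in both E8 libraries and high in both E10 libraries, with the mutant below the normal E10 embryo. Hba-x (ENSMUSG00000055609) was at 41.7 FPKM in wild type E8, 931 in Tc/Tc E10, 2470 in wild type E10 and 4.58 in Tc/Tc E8. Hbb-bh1, the earliest beta-like globin, was at 53.6 FPKM in wild type E8, 504 in Tc/Tc E10, 666 in wild type E10 and 76.5 in Tc/Tc E8. Of the large globin changes it was the smallest, at 3.21. Hba-a1 and Hba-a2, the adult-type alpha genes, went from 19.4 and 9.85 FPKM to 459 and 292, but they are near-identical copies whose reads the authors' counting could split. The adult beta genes Hbb-b1 and Hbb-b2 were listed at 0 in wild type E8 and stood at 3.21 and 1.86 FPKM in Tc/Tc E10. Summed over the 7 genes, globin RNA was at 126 FPKM in wild type E8, 2441 in Tc/Tc E10 and 7381 in wild type E10. In whole embryos, more cells of a type and more RNA per cell cannot be told apart.

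Other red cell genes differed in the same direction. The red cell list held 17 compared genes for erythroid regulators, membrane proteins and heme synthesis. Of these, 10 were higher and 0 lower, against 2.41% higher and 0.69% lower over all autosomal genes. The 17 had a median log2 ratio of 1.28. Slc4a1, the band 3 anion exchanger of the red cell membrane, was at 0.0829 FPKM in wild type E8 and 21.6 in Tc/Tc E10. It was near the floor of detection at E8. Gfi1b, a transcriptional repressor needed for red cell and megakaryocyte development, was at 0.238 and 2.72 FPKM. The regulators Klf1 and Nfe2 were at 3.49 and 2.78 FPKM in Tc/Tc E10 against 0.850 and 0.488. Fech and Urod, enzymes of heme synthesis, stayed within the rule, at 14.4 and 64.7 FPKM against 11.4 and 56.6. Tfrc, the transferrin receptor, was within it too, at 45.9 against 35.6 FPKM, whereas Slc25a37, a mitochondrial iron importer, was higher, at 16.3 against 5.85. Since many members lie under 5 FPKM, only 2 of the 17 passed with a pseudocount of 5. Alas2, the X-linked first enzyme of erythroid heme synthesis, was outside the autosomal set, and its values of 2.48 FPKM in wild type E8 and 9.48 in Tc/Tc E10 differed by more than the rule asks. Alad, another heme synthesis enzyme, is not on the list and is given below.

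Most of the listed heart muscle genes were higher in Tc/Tc E10. Of 16 sarcomere and calcium handling genes, 11 were higher and 0 lower, against 2.41% of all autosomal genes higher. Their median log2 ratio was 1.12. Myl2 (ENSMUSG00000013936), the ventricular myosin light chain, was at 14.1 FPKM in wild type E8, 85.4 in Tc/Tc E10, 124 in wild type E10 and 4.32 in Tc/Tc E8, the last listed at 0 in the other table. Its log2 ratio of 2.51 was the highest of the list. Nppa, the atrial natriuretic peptide gene, was at 0.355 FPKM in wild type E8 and 5.56 in Tc/Tc E10, and Nppb, its B-type relative, was listed at 0 and stood at 3.27. Tnni3, cardiac troponin I, was at 6.15 and 23.5 FPKM. For these 4 genes only Nppb was not higher still in wild type E10.

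Another group of sarcomere genes stood above both wild-type stages. Actc1, cardiac actin, was at 79.0 FPKM in wild type E8, 144 in wild type E10 and 256 in Tc/Tc E10. Myl4, an atrial light chain of the embryo, was at 58.6, 110 and 163 FPKM in the same order. Myl7, whose promoter is printed above, was at 73.3, 64.9 and 149 FPKM. Of these, Myl7 exceeded both wild types by a log2 ratio of 1 or more, at 1.01 over wild type E8, the nearer one, and Actc1 and Myl4 did not. In Tc/Tc E8 the same genes stood at 1.47, 2.31 and 5.50 FPKM, so the mutant libraries of the 2 stages were the lowest and the highest of the 4. Myh6, the atrial myosin heavy chain, was within the rule at 71.8 and 93.9 FPKM, and Atp2a2, the calcium pump of the sarcoplasmic reticulum, was at 96.0 and 78.4. All 11 higher members had a promoter in the RefSeq table and 4 of these held the MCAT letters, as did 3 of the 4 promoters of members within the rule, against 14.6% of all promoters.

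None of 13 heart regulators passed the size rule, which is near the share of all autosomal genes, 3.1% in either direction. Their median was 0.28, against 0.10 over all genes, with a range of -0.07 to 0.49. Of these regulators, 12 had a ratio above 0, against 62.5% of all genes. Nkx2-5, the homeobox factor of cardiac progenitors, was at 3.31 FPKM in wild type E8 and 4.53 in Tc/Tc E10. Hand1 was at 33.5 and 46.7 FPKM, and Smyd1, a muscle methyltransferase, at 4.60 and 6.89. Hand1 was lower in wild type E10, at 13.2 FPKM. The sarcomere list lost members under other scalings: 8 of 16 passed with centred ratios, 9 with equal totals and 6 with a pseudocount of 5, and 0 were lower in each.

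**Figure D3:**
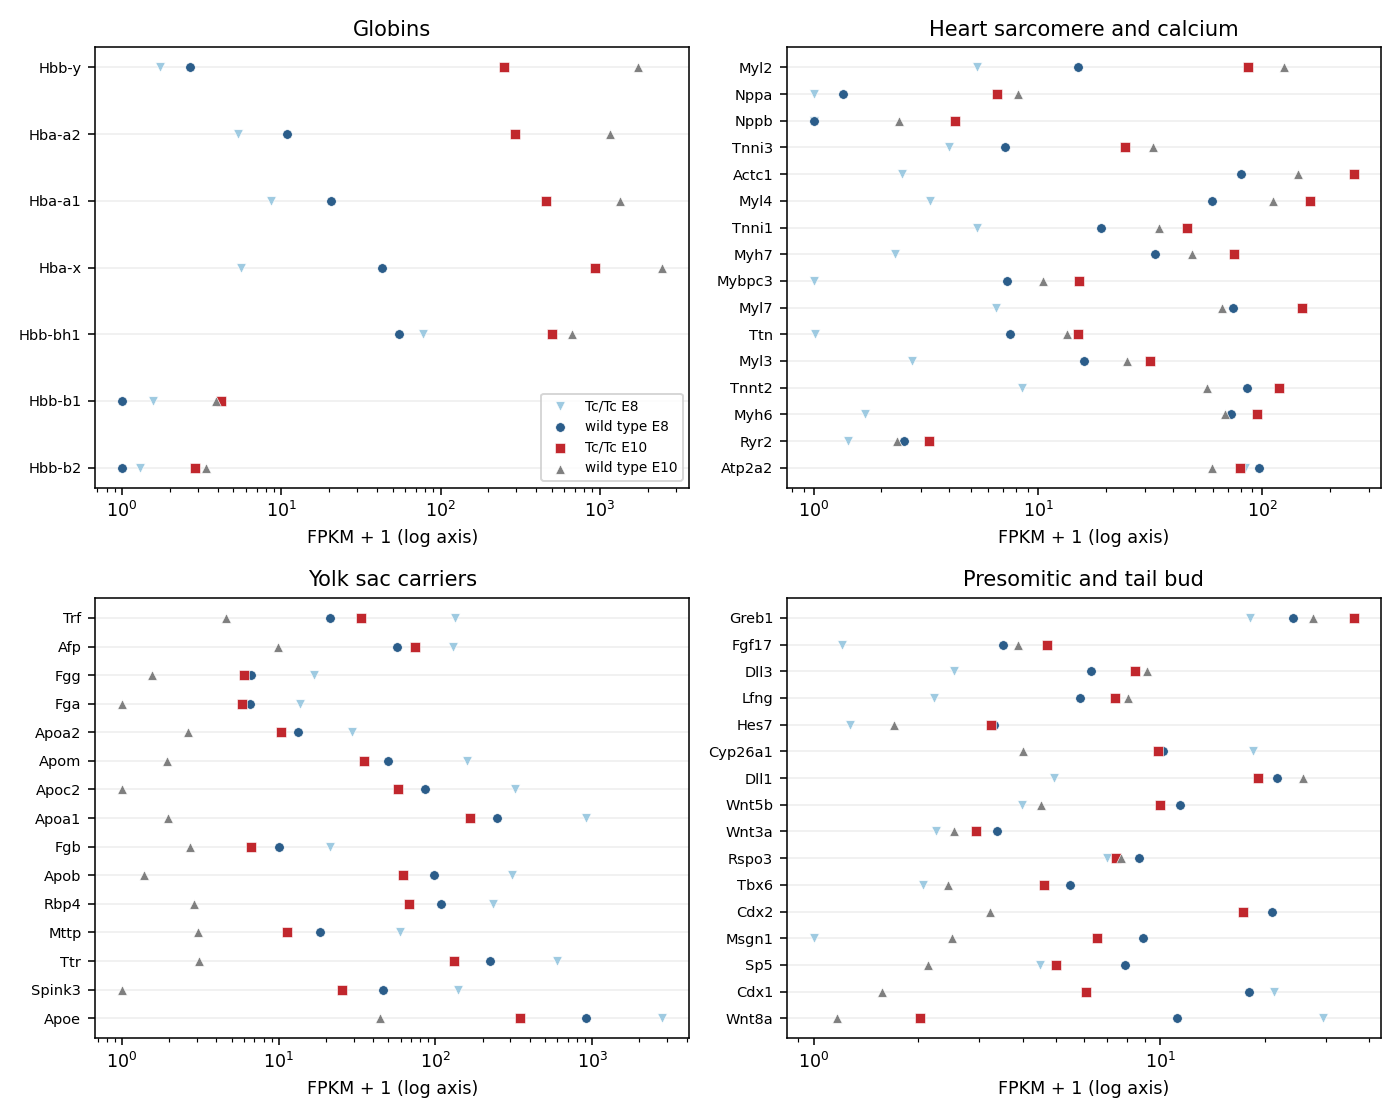
FPKM + 1 on a log axis for the compared members of 4 gene groups, 1 row per gene and 1 marker per library: wild type E8 (dark circle), Tc/Tc E10 (red square), wild type E10 (grey triangle up) and Tc/Tc E8 (light triangle down). The 5 most abundant globins in Tc/Tc E10 lie between wild type E8 and wild type E10, whereas yolk sac carriers in Tc/Tc E10 lie next to wild type E8 and far above wild type E10.

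Smaller groups held further genes that were higher in the later mutant, against 2.41% higher and 0.69% lower over all autosomal genes. Of 20 collagen and mesenchymal matrix genes, 5 were higher and 0 lower, with a median of 0.37. Col3a1, a fibrillar collagen of loose connective tissue, was at 2.74 FPKM in wild type E8, 13.9 in Tc/Tc E10 and 54.7 in wild type E10. Postn, periostin, was at 5.83, 15.7 and 52.5 FPKM, and Lum, lumican, at 2.37, 7.5 and 12.1. Each of these 3 matrix genes lay between the normal stages. Of 8 neural crest genes 3 were higher and 0 lower, with a median of 0.40. Sox10, the regulator of crest-derived glia and pigment cells, was at 1.87 FPKM in wild type E8, 9.04 in Tc/Tc E10 and 5.03 in wild type E10. The crest genes Tfap2b and Ednrb, the endothelin receptor B, were at 4.26 and 4.36 FPKM in Tc/Tc E10 against 1.04 and 1.38. Of 15 brain patterning genes 2 were higher, among them Pax6, an eye and forebrain factor, at 58.0 against 27.5 FPKM. Pax6 was listed at 0 for wild type E8 in the other table. With a pseudocount of 5, 1 matrix gene, 1 crest gene and 0 brain genes passed.

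Hox genes are switched on in order along the trunk, and most of those compared stood close to their wild type E8 levels. Against 2.41% higher over all autosomal genes, none of 8 genes of groups 1 to 4 passed. In groups 5 to 8, 1 of 7 was higher, and in groups 9 to 13, 2 of 6 were, with 0 lower in each range. The higher ones were Hoxc6 at 8.31 against 2.99 FPKM, Hoxa9 at 23.6 against 8.11 and Hoxc9 at 6.91 against 2.80. Hoxc10, of a later group, was at 0.873 FPKM in wild type E8, 1.66 in Tc/Tc E10 and 11.0 in wild type E10. Hoxa10 was at 1.07, 1.13 and 4.28 FPKM. For these group 10 genes the mutant at E10 stood beside the normal E8 embryo and below the normal E10 embryo. Hoxb1 and Hoxd1, of the first group, were at 13.5 and 7.0 FPKM in Tc/Tc E10 against 17.2 and 6.97 in wild type E8. In wild type E10 they were at 4.29 and 2.15 FPKM. Among 9 other listed Hox genes of groups 9 to 13 none reached 1 FPKM in either library. The lists held 12 genes of groups 1 to 4 and 11 of groups 5 to 8. Of these, Hoxa3 to Hoxa7, Hoxd3, Hoxd4 and Hoxd8 lacked an estimate for 1 of the 2 libraries and were not compared. Among them were Hoxa7, at 37.6 FPKM in Tc/Tc E10, and Hoxd3, at 8.87 in wild type E8.

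The genes that were lower in Tc/Tc E10 were few and were led by the immediate early genes. These are transcription factor genes that cells switch on quickly after growth factor or stress signals. Among 12 such genes and heat shock genes, 4 were lower and 1 was higher, with a median of -0.55, against 0.69% of all autosomal genes lower. Egr1 (ENSMUSG00000038418), a zinc finger factor, was at 27.6 FPKM in wild type E8, 2.23 in Tc/Tc E10, 3.22 in wild type E10 and 6.98 in Tc/Tc E8. Its log2 ratio of -3.15 was the lowest of the genes open to naming. Fos and Jun, the partners of AP-1, went from 35.8 and 36.7 FPKM to 3.91 and 11.2, and Fosb from 4.20 to 0.477. Wild type E8 was thus the highest of the 4 libraries for Egr1, Fos, Jun and Fosb. The higher member was Hspb1, a small heat shock protein gene, at 1.05 and 4.76 FPKM.

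Pluripotency genes held a single large difference, and streak genes held none. Pou5f1 (ENSMUSG00000024406), Oct4, the pluripotency factor that the epiblast shuts off, was at 18.9 FPKM in wild type E8, 1.79 in Tc/Tc E10, 0.184 in wild type E10 and 125 in Tc/Tc E8. Pou5f1 was the only 1 of 9 epiblast and germ cell genes to pass, and it was lower, with a log2 ratio of -2.83. Over all autosomal genes 0.69% were lower. L1td1, an RNA-binding protein gene of pluripotent cells, was within the rule at 9.60 and 6.60 FPKM, against 0.927 in wild type E10. Otx2, of epiblast and forebrain, was at 19.8 and 33.8 FPKM. Of 6 primitive streak genes none passed, against 3.1% of all autosomal genes. Their median was -0.23, with a range of -0.35 to 0.37. The streak genes Evx1 and Lhx1 were at 4.91 and 3.25 FPKM in Tc/Tc E10 against 6.15 and 4.42, while wild type E10 stood at 0.946 and 0.440. Both streak genes in the mutant at E10 lay beside the normal E8 level.

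In the tail bud list, too, most members stayed within the size rule. Of 16 presomitic mesoderm and tail bud genes, 2 were lower and 0 higher, against 0.69% of all autosomal genes lower. The median was -0.20. Wnt8a, a Wnt ligand of the streak, was at 10.2 FPKM in wild type E8, 1.03 in Tc/Tc E10, 0.166 in wild type E10 and 28.4 in Tc/Tc E8. Cdx1, a caudal-type homeobox factor, was at 17.0, 5.12, 0.576 and 20.2 FPKM in that order. Each lay between the normal stages in the mutant at E10. Cdx2 was within the rule at 20.03 and 16.3 FPKM, and Msgn1, a regulator of presomitic mesoderm and target of T, at 7.90 and 5.57. The clock genes Hes7 and Lfng were at 2.25 and 6.38 FPKM in Tc/Tc E10 and 2.30 and 4.85 in wild type E8. Their normal E10 values were 0.700 and 7.08 FPKM. Of 7 node and notochord genes 1 was higher, against 2.41% of all autosomal genes. It was Dand5, a Nodal antagonist of the node, at 4.87 against 0.587 FPKM. Dand5 was listed at 0 for wild type E8 in the other table, and its call was lost with a pseudocount of 5. Shh was at 6.33 against 3.29 FPKM. Somite genes had 0 of 11 past the rule, with Tcf15, the paraxial mesoderm factor, the farthest at 4.87 against 10.5 FPKM. Of 10 T-box genes, Tbx4, a gene of the hindlimb and allantois, had the largest difference, at 3.12 against 6.65 FPKM, within the rule.

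Yolk sac and visceral endoderm genes were abundant in both libraries. Of 15 lipoprotein and carrier genes, 1 was lower and 0 higher, against 0.69% lower and 2.41% higher over all autosomal genes. Their median log2 ratio was -0.58. Apoe (ENSMUSG00000002985), a lipid carrier, was the one that passed, at 909 FPKM in wild type E8, 345 in Tc/Tc E10, 43.4 in wild type E10 and 2798 in Tc/Tc E8. Ttr, transthyretin, was at 220 and 130 FPKM, and Spink3, a trypsin inhibitor, at 45.2 and 24.2. Wild type E10 stood at 2.10 FPKM for Ttr and was listed at 0 for Spink3. Trf, transferrin, and Afp, alpha-fetoprotein, had ratios above 0, at 32.4 against 20.1 FPKM and 72.9 against 55.5. The summed level over the 18 listed genes with an estimate was 1940 FPKM in wild type E8, 1131 in Tc/Tc E10, 69.4 in wild type E10 and 5946 in Tc/Tc E8. None of 11 uptake receptor and adaptor genes passed, with a median of -0.28, and their summed level was 479, 375, 95.4 and 1608 FPKM in that order. Cubn, the endocytic receptor cubilin, was at 63.3 FPKM in wild type E8 and 48.9 in Tc/Tc E10.

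Since the whole-embryo samples could hold such tissue in different amounts, its markers are a check on each group above. The part of yolk sac tissue in the blood, epithelial and metabolic genes was not tested. Among markers of maternal and placental cells, 6 trophoblast genes with an estimate summed to 6.26 FPKM in wild type E8 and 4.77 in Tc/Tc E10. None of the trophoblast genes was compared, and Tpbpa and Prl3d1 were listed at 0 in both libraries. The decidua list had 2 genes with an estimate, Des and Pgr, which summed to 8.25 and 12.8 FPKM. Most of this was Des, desmin, which muscle also makes, at 7.39 and 12.3 FPKM, and the decidual genes Prl8a2 and Prl3c1 were listed at 0 in both. Macrophage genes summed to 3.88 and 4.15 FPKM over the 5 with an estimate, and Adgre1 was listed at 0 in both.

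Gut endoderm genes had 1 of 11 members lower and 0 higher, against 0.69% lower and 2.41% higher over all autosomal genes. Their median was -0.28. Hnf4a, a nuclear receptor of visceral endoderm and liver, was at 25.9 FPKM in wild type E8, 4.78 in Tc/Tc E10 and 0.257 in wild type E10. Nepn, a marker of midgut, was at 21.2 and 14.7 FPKM. Epithelial keratins and junction genes stood close in the 2 libraries, with a median of -0.06. Past the rule were 0 of 15, against 3.1% of all autosomal genes. Krt19, a simple keratin, was the farthest, at 14.5 FPKM in wild type E8 and 29.3 in Tc/Tc E10. Krt18 was at 133 and 115 FPKM and Cdh1, E-cadherin, at 25.0 and 25.2. In wild type E10 these keratin and cadherin genes were at 8.41, 30.2 and 8.31 FPKM.

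Metabolic and growth genes were near the wild type E8 level or somewhat above it. Of 30 hypoxia target and glycolysis genes, 1 was higher and 0 lower, a share near that of all genes. Of the 30, 28 had a ratio above 0, against 62.5% of all genes, and the median was 0.37, against 0.10 over all genes. Common reference genes stood much the same, with 9 of 10 above 0 and a median of 0.32. Ankrd37, a target of hypoxia-inducible factor, was at 5.25 and 12.9 FPKM. Pfkp, a phosphofructokinase, was at 20.6 and 38.8 FPKM, Egln1, an oxygen sensor, at 14.2 and 26.3, and Bnip3, a mitophagy receptor, at 71.1 and 117. None of these 3 passed. Slc2a3 and Slc2a1, glucose transporters, were at 511 and 422 FPKM in Tc/Tc E10 and 423 and 395 in wild type E8, while wild type E10 was at 64.1 and 92.9. Of 11 heterochronic genes, which time developmental transitions, none passed, and Lin28a (ENSMUSG00000050966), a repressor of let-7 processing, was at 270 FPKM in wild type E8, 222 in Tc/Tc E10 and 73.2 in wild type E10. None of 23 replication and cell cycle genes, 16 p53 response genes or 18 integrated stress and unfolded protein response genes passed. Their medians were 0.11, 0.15 and 0.20. Asns, asparagine synthetase of the integrated stress response, came nearest at 59.6 against 30.1 FPKM, and Cdkn1a, the p53-induced cell cycle inhibitor, was at 4.05 against 3.41. Of 13 imprinted growth genes 1 was higher, against 2.41% of all autosomal genes. It was Mest, at 487 against 224 FPKM.

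Neuronal genes did not stand higher in the later mutant. Of 12 neuronal differentiation genes 0 were higher and 1 lower, against 2.41% higher and 0.69% lower over all autosomal genes. Their median was -0.02. In lists as short as those of this paragraph, 0 higher is near the share of all genes. Tubb3, neuronal tubulin, was at 4.65 FPKM in wild type E8, 6.37 in Tc/Tc E10 and 26.6 in wild type E10. Elavl4, a neuronal RNA-binding protein gene, was at 0.846, 1.37 and 11.9 FPKM. The mutant at E10 thus stood near the normal E8 level for both. Nefm, a neurofilament subunit, was lower, at 3.51 FPKM in Tc/Tc E10 against 8.42, with 21.3 in wild type E10 and 11.8 in Tc/Tc E8. Of 5 proneural and fate factors none passed. Cartilage genes had 0 of 7 past the rule and a median of 0.51. Col2a1, the cartilage collagen, was at 22.4 FPKM in wild type E8, 32.3 in Tc/Tc E10 and 50.6 in wild type E10.

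The list medians of Tc/Tc E10 can be set beside those of the normal course, wild type E10 over wild type E8, although both ratios share the wild type E8 library. Over all genes, 909 of 12872 were higher in the normal course (7.06%) and 604 lower (4.69%), 1513 in all (11.8%). For globins the medians were 4.45 and 5.86, for red cell genes 1.28 and 1.25, and for heart sarcomere genes 1.12 and 0.74. For these blood and heart lists both E10 libraries stood above wild type E8. For yolk sac carriers the medians were -0.58 and -4.36, for uptake receptors -0.28 and -2.14, for epithelial genes -0.06 and -1.30 and for streak genes -0.23 and -1.47. For tail bud genes they were -0.20 and -1.06. Hypoxia and glycolysis genes had medians of opposite sign, 0.37 and -0.73. Proneural factors were at 0.24 and 1.43, neuronal genes at -0.02 and 0.81 and brain patterning genes at 0.36 and 1.14. Immediate early genes were at -0.55 and -0.67. Of 41 lists with a compared member, 19 had none past the size rule in Tc/Tc E10 against wild type E8.

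**Figure D4:**
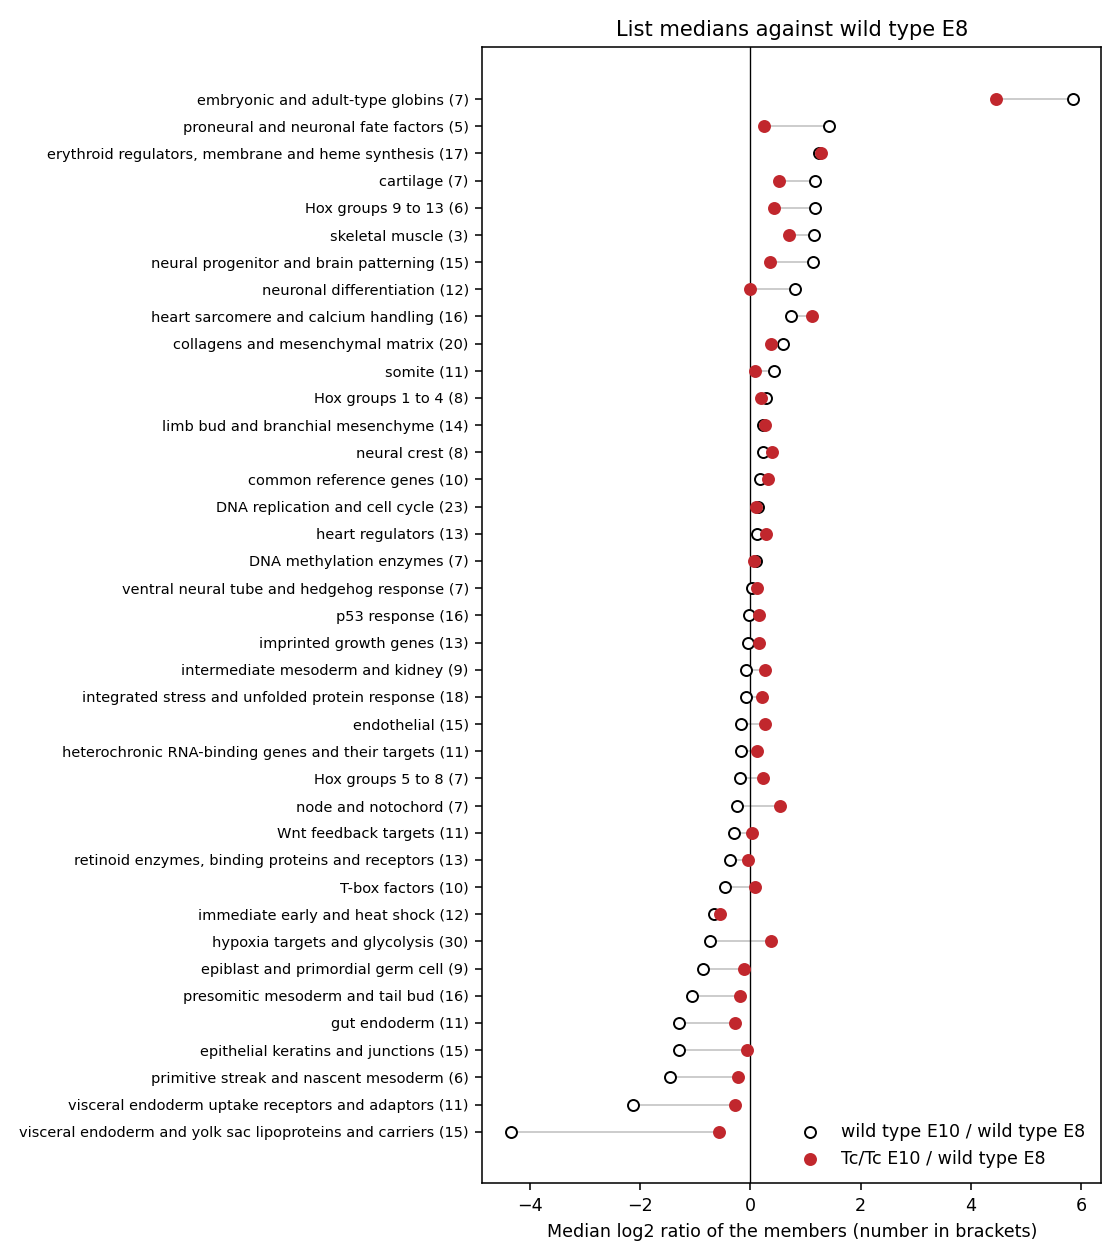
Median log2 ratio over the compared members of each list with 3 or more, for Tc/Tc E10 (red) and wild type E10 (open circles), both over the same wild type E8 library; the number of members is in brackets. Globins, red cell and heart sarcomere genes are above 1 for Tc/Tc E10, and the lists that are far below 0 in the normal course lie near 0 in Tc/Tc E10.

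Few genes in Tc/Tc E10 lay outside the range of the normal stages. Of 12866 genes, 34 (0.264%) stood above both wild type E8 and wild type E10 by a log2 ratio of 1 or more, and 15 (0.117%) below both. Counted in the same way, wild type E8 stood above the other 2 of these libraries at 58 genes (0.451%) and below them at 201 (1.56%). Wild type E10 stood above at 346 (2.69%) and below at 303 (2.36%). Among protein coding genes, 24 were above and 3 below in Tc/Tc E10. With wild type E10 from the E10 genotype table, 69 were above and 19 below.

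Of the listed genes, Myl7 and Dand5 were above both wild types and Nefm was below both. Those named next are on no list, apart from Nefm. Relt, a receptor of the tumour necrosis factor family, was at 5.55 FPKM in Tc/Tc E10, 0.857 in wild type E8 and 0.993 in wild type E10. Cryab, alpha B crystallin, a small heat shock protein of muscle and lens, was at 45.9, 8.29 and 15.9 FPKM. Pigp, of the glycosylphosphatidylinositol anchor pathway, was at 35.5, 6.65 and 13.7 FPKM. All 3 genes were low in Tc/Tc E8 too, with 0.757 for Relt, 9.80 for Cryab and 6.72 for Pigp. Mt1, a metallothionein, was at 62.0, 22.9 and 28.8 FPKM, with the highest level, 100.3, in Tc/Tc E8. Alad, of heme synthesis, was at 34.9, 16.5 and 13.3 FPKM, and its call was lost with equal totals. Acta2, smooth muscle actin, which is also made in the early heart, was at 148, 52.3 and 71.7 FPKM, with 15.3 in Tc/Tc E8. Ccdc63 and Cisd3 were at 29.9 and 7.32 FPKM in Tc/Tc E10, with 12.6 and 2.91 in wild type E10. Below both wild types were Nefm, described before, and Rabl2, at 16.4 FPKM against 42.2 and 38.4, with 14.1 in Tc/Tc E8. For Rabl2 the distance fell under the rule with the other estimate of wild type E10, 32.02 FPKM.

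The remaining libraries give another pair with the same difference in stage, the opposite difference in genotype and no library in common: wild type E10 over Tc/Tc E8. In that pair 1099 of 12641 genes were higher (8.69%) and 1389 lower (11%), 2488 in all (19.7%). The balance of directions turned with the scaling: centred on the median, 1393 were higher and 1108 lower, and with the other estimates of both libraries 1431 were higher and 1008 lower. Over 10510 protein coding genes measured in both pairs, 176 were higher in Tc/Tc E10 against wild type E8, and 100 of them, 56.8%, were also higher in the opposite pair. The number set by the sizes of both groups alone, their product over all genes, is 13.6. These 100 made up 12.3% of the 814 genes higher in the opposite pair. The opposite call was held by 7 of the 176, against 18.5. Of 38 genes lower in Tc/Tc E10, 21 (55.3%) were also lower in the opposite pair, against 4.0. These 21 made up 1.90% of the 1106 genes lower in that pair. Over all 12007 autosomal genes measured in both pairs, opposite calls exceeded the number set by the group sizes. They were held by 40 of 253 higher genes, against 27.2, and by 11 of 78 lower genes, against 6.1. The same call was held by 127, against 19.9, and by 35, against 8.4. With the other estimates of wild type E10 and Tc/Tc E8, opposite calls were 9 and 5, against 20.6 and 7.1. No test was made of these numbers, since each pair is 1 library against 1, and stage and sex differ together in both. Over the protein coding genes, the median log2 ratio of Tc/Tc E10 over wild type E8 was 0.46 where the opposite pair was higher. It was -0.15 where that pair was lower. All 7 globins and 11 of 16 heart sarcomere genes were higher in Tc/Tc E10 against wild type E8. In the opposite pair Hbb-y, Hba-x and Myl2 had log2 ratios of 9.97, 8.79 and 4.21. Yolk sac carriers were far lower in the opposite pair and within the size rule for 14 of 15 in the pair of Tc/Tc E10 and wild type E8.

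**Figure D5:**
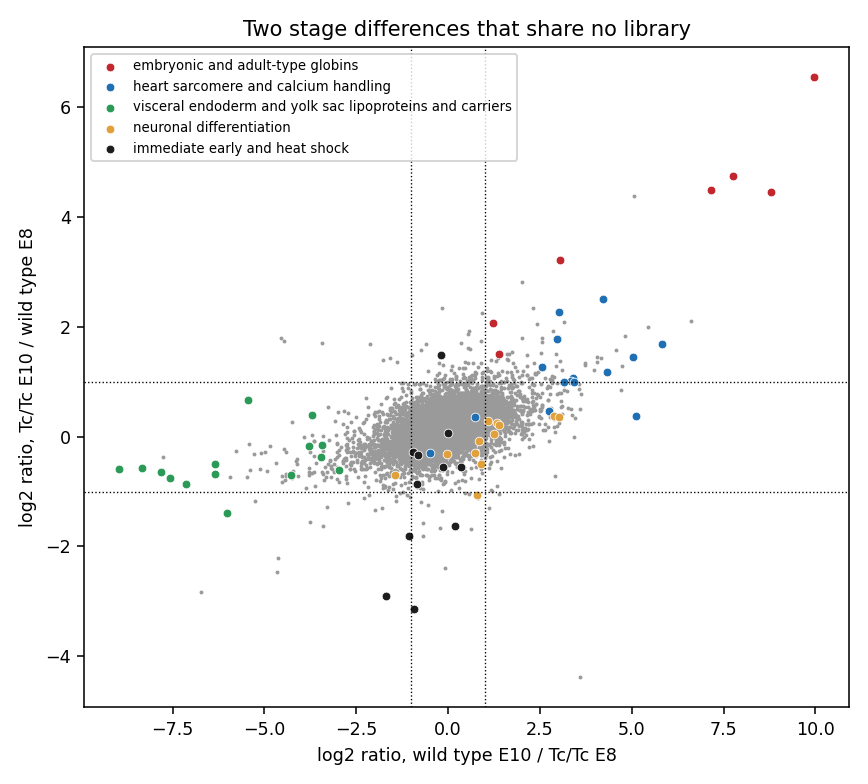
Each point is a protein coding gene, with the log2 ratio of wild type E10 over Tc/Tc E8 on the x axis and of Tc/Tc E10 over wild type E8 on the y axis; dotted lines mark ratios of 1 and -1, and 5 gene groups are coloured. Globins and several heart sarcomere genes lie in the upper right, and yolk sac carriers extend far left near a y value of -0.58.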

How the data were processed

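Per the labels' protocols, RNA was extracted with TRIzol LS and made into strand-specific ScriptSeq v2 libraries, 1 for each of 4 groups. The submitters' processing notes name Bowtie2, Cuffdiff and the build mm9, with no versions; no source used here names the gene annotation. The 4 pairwise tables deposited by the authors each give FPKM values and a p-value per gene, per the file headers. Cuffdiff estimates the libraries of a table together, so a library can have other values in another table, and a very abundant transcript lowers the FPKM of the rest. Tc/Tc E10 came from the E10 genotype table and wild type E8 from the wild-type stage table, joined by Ensembl identifier. Values printed for wild type E10 and Tc/Tc E8 come from the wild-type stage table and the E8 genotype table. The pair of these libraries used the E10 genotype table for wild type E10. In the table of the Tc/Tc stages 1 column carries the heading of wild type E10, and it was left unused. The deposited p-value compares single libraries. It served only to find genes without an estimate in the table of the Tc/Tc stages. Elsewhere, genes without an estimate were those at 0 in both columns.

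Ratios used a pseudocount of 1 FPKM and a minimum of 1 FPKM in 1 or both libraries, with Python 3.11.15 and pandas 2.3.3; the code was tested on simulated data. Chromosomes and names came from GENCODE M21, which named 31838 of 36808 identifiers, and 25 symbols turned into dates were renamed. Of 598 genes on 43 lists, 441 were compared, 49 higher and 10 lower; 10 were matched by identifier and 5 had no row. Lists and members were chosen with earlier results of these data known. Named genes are the up to 4 members of each list with the largest ratios and any that move against their list, the 12 highest and lowest of all genes, the 8 farthest above and below both wild types, and T; some genes that this rule names are not reported here. The repeat of the last 2 for protein coding genes, and every other gene named, was chosen after its values were seen. Genes taken from all genes also needed a symbol on 1 identifier and no clone name. They had to reach 5 FPKM in the higher library and be called with both estimates of wild type E8. Alternatives were another table for wild type E8, a ratio chained through wild type E10, equal totals, centring, pseudocounts of 0.1 and 5, and other minimums.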

Additional observations from a re-analysis of the deposited data

How the results depend on the processing

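Direction held throughout. Of 69 named genes past the size rule, 40 passed it in each alternative that gave a value. The other 29 lost it in 1 or more, and 0 changed sign. Genes named from all genes had been chosen to pass with the other wild type E8 estimate and to reach 5 FPKM. For them those alternatives are no check. Most losses came with a pseudocount of 5. Of 41 list medians 8 changed sign in 1 or more alternatives, but none of the 9 with a size of 0.5 or more. The 297 higher and 85 lower genes became 571 and 166 with a pseudocount of 0.1, 89 and 30 with a pseudocount of 5, and 185 and 55 with a minimum of 5 FPKM. Chained through wild type E10, 508 were higher. With protein coding genes only, an alternative chosen after seeing the data, they were 190 and 41. Genes above and below both other libraries, 34 and 15 in Tc/Tc E10, 58 and 201 in wild type E8 and 346 and 303 in wild type E10, became 8 and 2, 22 and 58, and 118 and 95 with a pseudocount of 5. With wild type E10 from the E10 genotype table, 69 were above in Tc/Tc E10. With protein coding genes only, 3 were below in Tc/Tc E10, 32 above and 117 below in wild type E8, and 217 above in wild type E10. The cause of these shifts was not tested. The other count settings stayed within 1.5 times the main count. No paired analysis was possible because each group has 1 library and the labels give no replicate numbers. The absolute depth is unknown, so low genes carry no counting interval, and re-estimation error does not cover the spread between embryos.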

Other observations

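Small RNA genes took 7 of the 12 highest places of all genes open to naming, and the wild type E8 estimate of each was under 1 FPKM in both of its tables. SNORD113.15, a small nucleolar RNA gene, was at 0.285 FPKM in wild type E8 and 499 in Tc/Tc E10. The same wild type E10 library was given as 592 FPKM in the wild-type stage table and 0.269 in the E10 genotype table. Tc/Tc E8 was given as 944 and 0.681. SNORD31.1 behaved alike, at 0.0697 FPKM in wild type E8 and 86.7 in Tc/Tc E10, with 63.7 and 0.0238 for wild type E10. The size of these ratios therefore differs with the table. In contrast SNORD113.18 was listed at 0 in wild type E8, stood at 21.5 FPKM in Tc/Tc E10 and kept its wild type E10 value between tables, at 198 and 200.2.

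The predicted genes Gm10800 and Gm10801 were chosen after their values were seen. Gm10800 was at 238 FPKM in wild type E8, 797 in Tc/Tc E10, 11.9 in wild type E10 and 284 in Tc/Tc E8, and Gm10801 at 93.5, 326, 3.69 and 109. Both genes were far lower in wild type E10 than in the other libraries. Mt2, a metallothionein beside Mt1, was at 20.1 FPKM in wild type E8, 67.0 in Tc/Tc E10, 36.2 in wild type E10 and 162 in Tc/Tc E8. The globin-like gene Hbb-bh0 and the apolipoprotein gene Apoa4 were at 32.7 and 10.5 FPKM in Tc/Tc E10 but had no estimate in the wild-type stage table, so they were not compared. S100g, an X-linked calcium-binding protein gene of the yolk sac list, was at 55.7 and 107 FPKM.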
